A study of Arabidopsis thaliana with 6 samples.

Results

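UGT78D1 (AT1G30530, chromosome 1) and UGT78D3 (AT5G17030, chromosome 5) encode UDP-sugar-dependent glycosyltransferases that act on flavonols. The members were the probe sets whose platform annotation gives either gene, which left 1 probe set for each, so 2 genes out of the 13356 that had a probe set of their own. They are set beside 13 other genes of a flavonoid list that have a probe set, 4 of which were entered by locus and have no symbol in the annotation. RNA came from unopened flower buds of Arabidopsis thaliana and was hybridised to 6 single-colour Affymetrix arrays, 2 for each of days 3, 4 and 5 of drought. All plants, on every day, carried anac019-1 (SALK_096295), a T-DNA insertion in ANAC019, which encodes a NAC transcription factor, in Col-0. Water was withheld from plants that had just bolted, after 24 days of growth. About 80 hours later, on the day counted as day 3, the soil held near 35% of its water capacity, and it was kept there. The plants were 28, 29 and 30 days past germination on days 3, 4 and 5. Buds of the wild type or of watered plants were not analysed here, so plant age and drought duration cannot be told apart, nor can the mutation and the treatment. ANAC019 has no named probe set here, and its level was not used as a check of the labels. Nothing in the labels says that replicates came from separate pots, so the p-values cover only how far these samples spread, which may be technical.

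Flavonols are made from phenylalanine through chalcone synthase, chalcone isomerase, flavanone 3-hydroxylase and flavonol synthase. Plants store them mostly as glycosides, with sugars attached at the 3 and 7 positions by glycosyltransferases of the UGT family. In Arabidopsis, UGT78D1 attaches rhamnose at the flavonol 3 position, UGT78D2 attaches glucose there, and UGT78D3 attaches arabinose. Flavonol glycosides are abundant in flowers, where anthers deposit them on the pollen surface and petals and other organs also accumulate them. Anthocyanins and proanthocyanidins leave the same pathway through dihydroflavonol reductase.

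The values are log2 probe set summaries on the RMA scale, which equalises the arrays, so each change is relative to the other transcripts. Array medians lay between 6.97 and 7.03, and RMA compresses changes near the lower end. Pearson's r across the 22746 tested probe sets was 0.994 to 0.996 between replicates, 0.992 to 0.995 between days 3 and 4, and 0.964 to 0.983 between day 5 and either earlier day. The control transcripts (ubiquitin, actin, GAPDH) read higher at their 3′ than their 5′ ends, by 2.94 on average in day 3 replicate 1 and by at most 2.48 in the other arrays. The tissue label could be checked only in part. UFO was the only 1 of 11 floral organ identity genes with a probe set and read 3.92 to 4.17, near the lower end of the scale, while the anther regulator AMS read 8.18 to 9.19. In bulk buds, fewer cells of a type and less RNA per cell cannot be told apart.

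UGT78D1 was lower on day 5 than on either earlier day. Its probe set read 10.46 and 10.64 on the day 3 arrays, 10.16 and 10.42 on the day 4 arrays, and 9.17 and 9.14 on the day 5 arrays, in log2 units. Both day 5 arrays lay about 1 log2 unit or more below every earlier array and nearly on each other. Day means were 10.55 ± 0.12, 10.29 ± 0.18 and 9.15 ± 0.02 (SD, n = 2 per day), so the order of levels was day 3, day 4, day 5. Day 5 was 2.20-fold lower than day 4, a log2 difference of -1.14 ± 0.13 (SE) with a 95% confidence interval of -1.44 to -0.83 (limma 3.58.1, Benjamini-Hochberg over all probe sets, adjusted p = 0.00161). In that comparison 11.6% of all probe sets passed as lower at an adjusted p of 0.05. Day 5 was 2.63-fold lower than day 3, a difference of -1.40 ± 0.13 (limma adjusted p = 0.000406), where 15.9% of all probe sets passed as lower. Both day 5 arrays lay below both day 4 arrays in 37.0% of all probe sets, and below both day 3 arrays in 35.3%.

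Between the first 2 days UGT78D1 did not pass. Day 4 differed from day 3 by -0.26 ± 0.13, with an interval of -0.57 to 0.05 (limma adjusted p = 0.634). Both day 4 arrays lay below both day 3 arrays, as they did for 21.2% of all probe sets. The step into day 5 minus the step into day 4 was -0.88 ± 0.23 on the log2 scale, and this difference between steps did not pass either (limma adjusted p = 0.11). Of all probe sets, 1.93% passed this test. For UGT78D1 it passed when each array was centred on its poly-A spike-ins, at -1.17 (limma adjusted p = 0.0439).

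UGT78D3 was also lower on day 5 than on either earlier day. Its probe set read 6.80 and 7.09 on day 3, 6.74 and 7.06 on day 4, and 6.42 and 5.99 on day 5. The day 3 and day 4 arrays overlapped, and both day 5 arrays lay below all 4 of them, with a wider gap between the day 5 replicates than UGT78D1 showed. Day means were 6.94 ± 0.20, 6.90 ± 0.22 and 6.20 ± 0.30 (SD, n = 2 per day). Day 5 was 1.62-fold lower than day 4, a difference of -0.70 ± 0.19 with an interval of -1.13 to -0.26 (limma adjusted p = 0.0339). Day 5 was 1.67-fold lower than day 3 (-0.74 ± 0.19, limma adjusted p = 0.0215). Day 4 differed from day 3 by -0.04, with an interval of -0.48 to 0.39 (limma adjusted p = 0.976), and the steps differed by -0.66 ± 0.32 (limma adjusted p = 0.365).

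**Figure D1:**
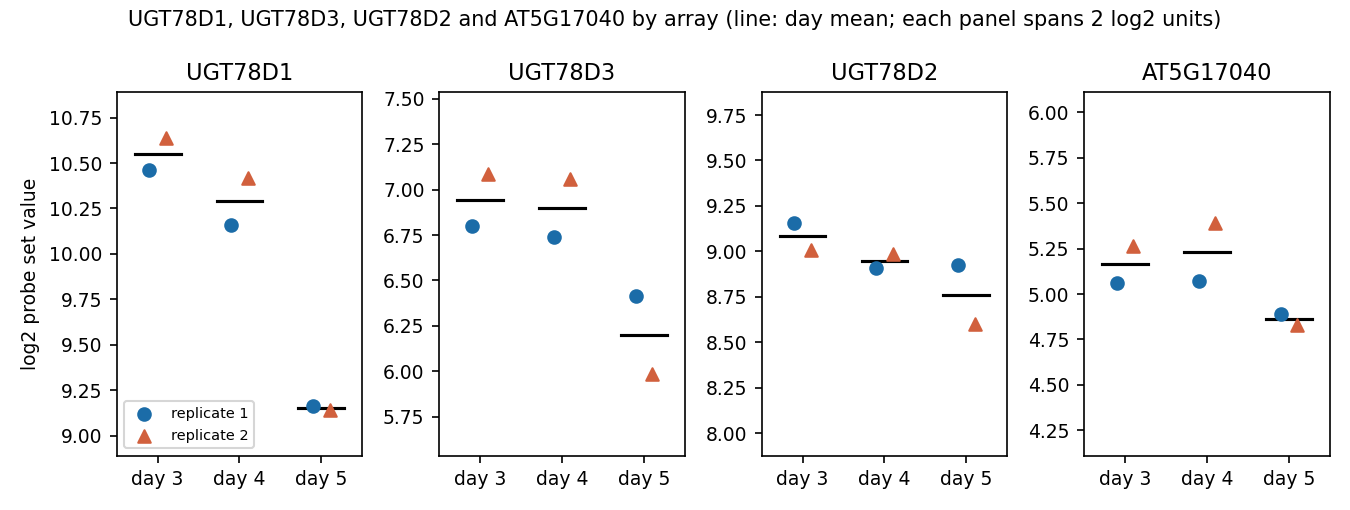
Log2 probe set values (y axis) of UGT78D1, UGT78D3, UGT78D2 and AT5G17040 by day of drought (x axis), with circles for replicate 1, triangles for replicate 2 and a line at the day mean. The UGT78D1 arrays of day 5, at 9.17 and 9.14, sit below all earlier arrays, and the UGT78D2 arrays of day 5 overlap those of day 4.

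The UGT78D3 result was less stable than that of UGT78D1. For UGT78D1, both comparisons with day 5 stayed past the threshold under each of the 15 alternatives run, with adjusted p up to 0.0232. For UGT78D3 the comparison of day 5 with day 4 was lost without day 4 replicate 1, where the difference was larger, at -0.86 (limma adjusted p = 0.0675), and without day 4 replicate 2 (-0.54, 0.213) or day 5 replicate 2 (-0.48, 0.184), where it was smaller. Its comparison of day 5 with day 3 was lost without day 3 replicate 2 (limma adjusted p = 0.109) or day 5 replicate 2 (0.125). The differences from day 3 were then -0.60 and -0.53. Not all 15 alternatives are separate checks. For a comparison of 2 days, leaving out an array of the other day gives the same fit as the 4 arrays alone. The array weights were equal within each day.

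**Figure D2:**
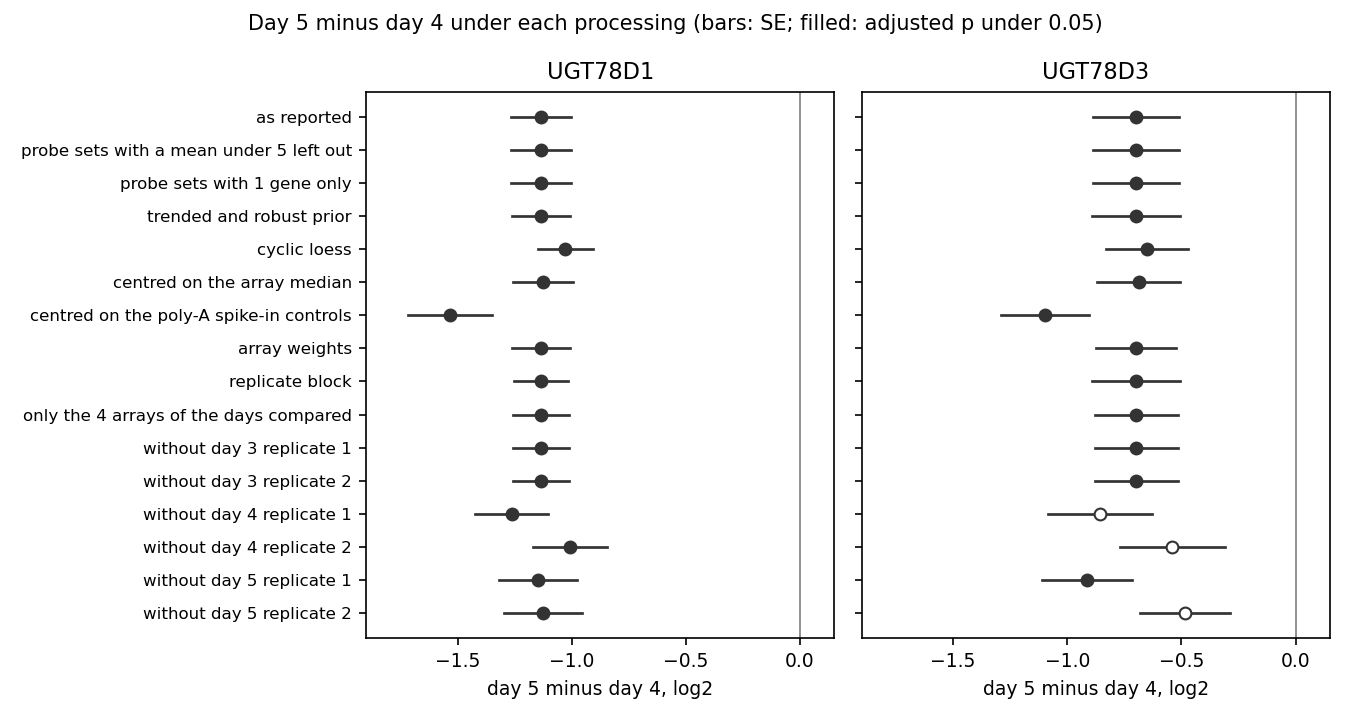
Difference of log2 day means, day 5 minus day 4 (x axis), for UGT78D1 (left) and UGT78D3 (right) as reported and under each of 15 alternatives (y axis), with bars of 1 SE and filled points where the adjusted p is under 0.05. UGT78D1 lies between -1.53 and -1.01 and is filled throughout, while UGT78D3 lies between -1.10 and -0.48 and is open without day 4 replicate 1, day 4 replicate 2 or day 5 replicate 2.

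UGT78D2 (AT5G17050), the flavonol 3-O-glucosyltransferase gene, did not pass in any comparison, except with spike-in centring. With that centring, day 5 minus day 4 was -0.58 (limma adjusted p = 0.0122) and day 5 minus day 3 was -0.82 (limma adjusted p = 0.000712). UGT78D2 read 9.15 and 9.01 on day 3, 8.91 and 8.98 on day 4, and 8.93 and 8.60 on day 5. The day 5 and day 4 arrays overlapped. Day 5 minus day 4 was -0.18 with an interval of -0.51 to 0.14 (limma adjusted p = 0.41), and day 5 minus day 3 was -0.32 with an interval of -0.65 to 0.01 (limma adjusted p = 0.135). Neither interval reaches the change of UGT78D1. UGT78D3, AT5G17040 and UGT78D2 lie next to each other, in that order, on chromosome 5 in the RefSeq gene table of assembly TAIR10.1, while UGT78D1 is on another chromosome. AT5G17040, which has no symbol in that table, read 5.06 and 5.26 on day 3, 5.07 and 5.39 on day 4, and 4.89 and 4.83 on day 5. Its day 5 arrays lay below all earlier ones, but the differences of -0.37 from day 4 (limma adjusted p = 0.109) and -0.30 from day 3 (0.166) did not pass, except with spike-in centring. How far probes of these related genes share target could not be examined, since probe sequences were not used here.

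The gap between UGT78D1 and UGT78D3 within each array was also compared between days. From day 4 to day 5 the log2 value of UGT78D1 minus that of UGT78D3 changed by -0.44, with replicate SDs of 0.29 on day 5 and 0.04 on day 4. UGT78D1 minus UGT78D2 changed by -0.95, and UGT78D3 minus UGT78D2 by -0.51. In each of these 3 differences, which share the same 3 genes, the arrays of day 5 and day 4 did not overlap. They did not overlap for UGT78D3 minus AT5G17040 or UGT78D1 minus AT1G06000 either. Non-overlap was not particular to day 5. The arrays of day 4 and day 3 also did not overlap for UGT78D1 minus UGT78D3 (-0.22), UGT78D3 minus AT5G17040 (-0.11) and UGT78D1 minus AT1G06000 (-0.30). They did for UGT78D1 minus UGT78D2 and UGT78D3 minus UGT78D2. The share of all gene pairs without such overlap was not computed. An exact two-sided permutation test of 2 arrays against 2 cannot give a p below 0.333. That was its value for each of the first 3 differences between day 4 and day 5, so this test could not pass for any of them.

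The list of other flavonoid genes held 87 entries with the members, of which 15 had a probe set with 1 gene; the search of symbols and synonyms for flavonoid terms added none. No gene of the general phenylpropanoid, nucleotide sugar or transport groups was measured. Of the 13 genes beside the members, 3 fell on day 5 relative to day 4, 1 rose and 9 did not pass, a share called of 30.8% against 22.1% of all probe sets (11.6% lower and 10.4% higher). Relative to day 3, 4 fell on day 5, 1 rose and 8 did not pass, 38.5% against 28.8% (15.9% lower and 12.9% higher). The median differences were -0.24 and -0.30, against -0.04 over all probe sets in both comparisons. Whether these shares differ from the background was not tested. Centring on the spike-ins, which moves the median of all probe sets to -0.44 and -0.55, called 12 of the 15 genes lower on day 5 than on day 4, so a gene given below as not passing is one that did not move apart from the bulk of transcripts by enough to pass. Between day 3 and day 4 none of the 15 flavonoid genes, members included, passed in limma, none had an unadjusted p under 0.05, and 0.501% of all probe sets passed.

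Upstream of glycosylation, CHIL (AT5G05270), a chalcone isomerase-like protein that supports flavonoid synthesis, was the only backbone gene measured. Its day means were 11.20 ± 0.29, 11.42 ± 0.18 and 11.18 ± 0.15 on days 3, 4 and 5 (SD, n = 2 per day), and day 3 arrays overlapped with those of both later days, while both day 5 arrays lay below both day 4 arrays. Day 5 minus day 4 was -0.24, with an interval of -0.64 to 0.16 (limma adjusted p = 0.381). In the anthocyanin and proanthocyanidin branch, DFR, dihydroflavonol 4-reductase, differed by 0.37 between day 5 and day 4 (limma adjusted p = 0.13), and BAN, anthocyanidin reductase, by -0.33 (0.251). DFR ranged from 4.07 to 4.74 and BAN from 3.59 to 4.29, near the lower end of the scale.

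Among genes of glycosylation and decoration, AT5G54010 is listed with the synonym UGT79B6, which adds a further glucose to flavonol glucosides in pollen. It read 6.84 and 6.73 on day 3, 6.37 and 6.62 on day 4, and 6.0 and 5.86 on day 5. The arrays of the 3 days did not overlap. Day 5 differed from day 4 by -0.57 (limma adjusted p = 0.0201, lost without replicate 2 of either day) and from day 3 by -0.86 (limma adjusted p = 0.00276). BGLU15, a beta-glucosidase that acts on flavonol glycosides, read 7.61 and 7.32 on day 3, 7.44 and 7.27 on day 4, and 6.93 and 6.82 on day 5. Its differences were -0.48 from day 4 (limma adjusted p = 0.0448) and -0.59 from day 3 (limma adjusted p = 0.0166). The first call was lost whichever day 4 or day 5 array was left out, and the second without day 3 replicate 1 or day 5 replicate 2.

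AT1G06000 had the largest change in the list. The annotation gives it no symbol, so no role is stated. It read 11.05 and 11.17 on day 3, 11.03 and 11.28 on day 4, and 9.90 and 9.51 on day 5. The earlier days overlapped and both day 5 arrays were more than 1 log2 unit below them. Day 5 was 2.73-fold lower than day 4 (-1.45 ± 0.16, limma adjusted p = 0.00139) and 2.65-fold lower than day 3. UGT78D1 minus AT1G06000 changed by 0.01 between day 3 and day 5, with overlap between those days, and by 0.31 between day 4 and day 5. AT4G14090, also without a symbol, differed by -0.54 between day 5 and day 3 (limma adjusted p = 0.0334), and this call held without day 5 replicate 2 but not without any other array. The other 3 genes of this group did not pass in any comparison with all 6 arrays, except with spike-in centring. With that centring UF3GT passed at -0.50 for day 5 minus day 4 (limma adjusted p = 0.0261). All 3 genes then passed as lower for day 5 minus day 3. For UF3GT, annotated as a flavonoid 3-O-glucosyltransferase, AT5MAT, a malonyltransferase of anthocyanins, and UGT80B1, a sterol glucosyltransferase also called TT15, day 5 minus day 4 lay between -0.10 and 0.01. Day 5 minus day 3 was -0.39 for AT5MAT (limma adjusted p = 0.0685), which passed without day 5 replicate 2 (-0.54, limma adjusted p = 0.0469), and it was -0.07 for UF3GT and 0.06 for UGT80B1, which turned to -0.44 with spike-in centring.

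AT1G23390, entered by locus among the regulators and without a symbol, was the only listed gene that rose. It read 7.82 and 7.45 on day 3, 7.45 and 7.33 on day 4, and 8.63 and 8.60 on day 5. Day 5 was 2.34-fold higher than day 4, a difference of 1.22 ± 0.14 (limma adjusted p = 0.0017), and 1.97-fold higher than day 3. Its day 5 replicates differed by 0.03 and lay above every earlier array.

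**Figure D3:**
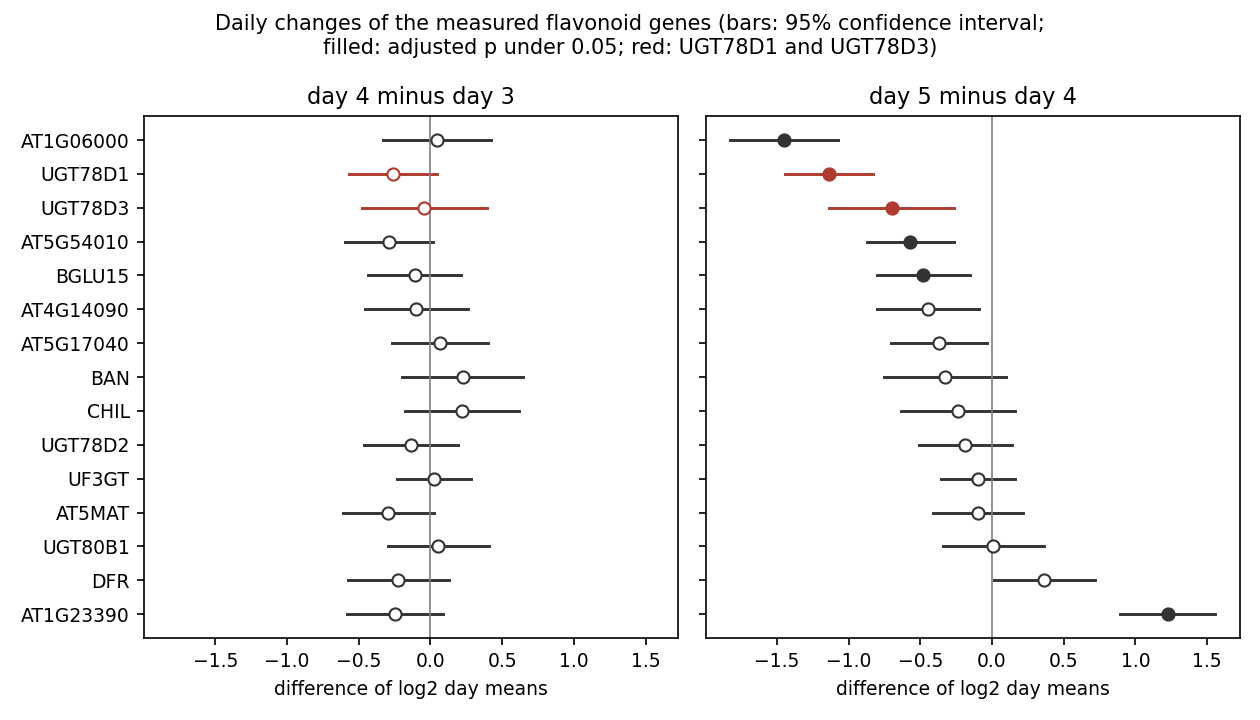
Difference of log2 day means (x axis) of the 15 measured flavonoid genes (y axis) for day 4 minus day 3 and for day 5 minus day 4, with bars for the 95% confidence interval and filled points where the adjusted p is under 0.05. No point is filled in the first panel; in the second, AT1G06000, UGT78D1, UGT78D3, AT5G54010 and BGLU15 are filled below 0 and AT1G23390 above 0.

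Profiles were also compared over all genes, as the Euclidean distance between log2 values centred on each gene's own mean over the 6 arrays. Of 13512 probe sets with 1 gene, those nearest to UGT78D1 were AT4G17000, AT4G28780, AT5G17630, PRL and AT5G55180, at distances of 0.14 to 0.20 and with Pearson's r of 0.993 to 0.998. PRL is the MCM7 subunit of the replicative helicase, and the other 4 have no symbol. Those nearest to UGT78D3 were AT3G63290, AT2G18910, KICP-02, AT5G16870 and AT5G12900, at 0.15 to 0.21 and with r of 0.978 to 0.995. No flavonoid gene was among either 5. For UGT78D1 the nearest flavonoid gene was AT1G06000, at rank 147 (distance 0.45, r = 0.968), and UGT78D3 stood at rank 574 (distance 0.73, r = 0.923). For UGT78D3 the nearest was AT5G54010, at rank 399, and UGT78D1 stood at rank 2900. These are descriptions over 6 arrays that share the same 3 days, so any gene that fell on day 5 correlates with the members.

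Some markers of anther and pollen stages and of green tissue also changed on day 5. Of 21 tapetum and early anther genes 5 were measured, and their mean log2 level was 8.42 to 8.50 on day 3, 8.45 to 8.59 on day 4, and 8.13 and 7.58 on day 5. SHT, a spermidine hydroxycinnamoyl transferase of the tapetum, read 10.77 and 10.58 on day 3, 10.63 and 10.59 on day 4, and 9.23 and 8.32 on day 5. On day 5 relative to day 4, 2 of the 5 fell: the difference was -1.83 for SHT (limma adjusted p = 0.00338) and -0.59 for AT1G06170 (limma adjusted p = 0.0176). Relative to day 3, SHT was the only 1 of the 5 that passed, at -1.89 (limma adjusted p = 0.00173), and AT1G06170 differed by -0.36 (0.0791). SHT had the largest difference of the 5 in both comparisons and weighs most in their mean. All 5 read lower in replicate 2 than in replicate 1 on day 5, as did UGT78D3, AT1G06000 and UGT78D2, with differences of -0.43, -0.40 and -0.33, while UGT78D1 differed by -0.03. UFO, the 3 measured green tissue genes, CHIL, UGT80B1, AT5G54010, BGLU15, UF3GT, AT5G17040 and AT1G23390 were also lower in replicate 2. BAN, DFR, AT4G14090, AT5MAT and the measured late pollen genes were higher. The share of all probe sets lower in replicate 2 was not computed. Of 9 late pollen genes 7 were measured, with means of 6.09 and 6.38 on day 3, 6.43 and 6.44 on day 4, and 7.14 and 7.54 on day 5, and 5 of them rose on day 5 relative to day 4, where 10.4% of all probe sets passed as higher and 11.6% as lower. The 3 measured green tissue genes averaged 11.99 and 12.07, 11.67 and 11.74, and 11.30 and 11.22 on days 3, 4 and 5. Of these, 2 passed as lower on day 5 relative to day 4. All 3 did relative to day 3, where 15.9% of all probe sets passed as lower. No list is at 0, since the log2 scale has no zero and no detection calls were used. The part of these tissues in the members' changes was not tested.

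**Figure D4:**
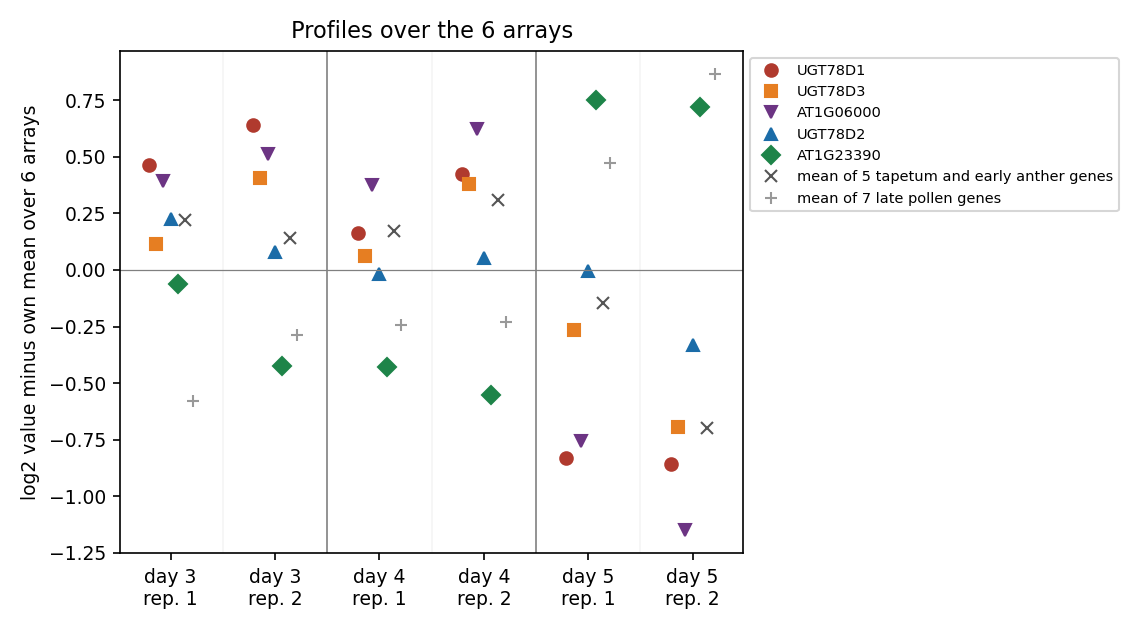
Log2 value minus the gene's own mean over the 6 arrays (y axis) for each array (x axis), for UGT78D1, UGT78D3, AT1G06000, UGT78D2 and AT1G23390 and for the means of 5 tapetum and early anther genes and of 7 late pollen genes. On day 5, UGT78D1 and AT1G06000 are lowest and AT1G23390 and the late pollen mean are highest, and UGT78D3 and the tapetum mean are lower in replicate 2 than in replicate 1.

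Within the wider family, 47 genes have a symbol that starts with UGT. Of the 45 beside the members, 6 fell on day 5 relative to day 4, 2 rose and 37 failed the test, a share called of 17.8% against 22.1% of all probe sets, with a median difference of -0.05. Among all 47, UGT78D1 had the largest fall between day 4 and day 5 and between day 3 and day 5. The 47 leave out genes named by locus, such as AT5G54010 with the synonym UGT79B6. AT1G06000, also named by locus, differed by -1.451 from day 4 and -1.405 from day 3, against -1.136 and -1.396 for UGT78D1. Of the measured genes within 3 places of the members on their chromosomes, AT1G30540, which adjoins UGT78D1, differed by 0.02 between day 5 and day 4 (limma adjusted p = 0.919), and AT1G30515, a little further on the other side, differed by -0.99 (limma adjusted p = 0.00633). AT1G30550, beyond AT1G30540, differed by -0.25 (limma adjusted p = 0.2). AT5G17010, near UGT78D3, differed by -0.33 from day 4 (limma adjusted p = 0.0866) and passed as lower relative to day 3, at -0.47 (limma adjusted p = 0.0206).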

How the data were processed

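The deposited table held log2 values for 22810 probe sets on 6 arrays. Per the submitters' processing notes the authors used RMA and the R package affy; tool versions and whether other arrays were normalised with these were stated in no source used here. The 64 control probe sets were left out, and 22746 were tested. Probe sets were named from the platform annotation, with symbols updated by gene identifier through a RefSeq table (TAIR10.1): 13513 had 1 gene, 503 several and 8730 none listed.

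The 3 day means were fitted in limma 3.58.1 under R 4.3.3 (lmFit, eBayes, all 6 arrays, 3 residual degrees of freedom plus 4.69 from the prior), two-sided, with Benjamini-Hochberg adjustment within a comparison and a threshold of 0.05. The code was tested on simulated data. Array number limits the precision.

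The members and lists were chosen with earlier results of these data known. Named are the members, all measured flavonoid genes, and the 5 nearest profiles. AT1G30515, AT1G30540, AT1G30550, AT5G17010 and the family genes in the closing section were chosen after their values were seen. Alternatives were a filter on means under 5, a trended and robust prior, probe sets with 1 gene only, cyclic loess, median or poly-A spike-in centring, array weights, a replicate block, 4 arrays only, and leaving out each array.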

Additional observations from a re-analysis of the deposited data

Results flagged for a closer look

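Among the flavonoid genes, 2 had a step into day 5 that differed from the step into day 4 by the test of that difference. For AT1G06000 the later step minus the earlier step was -1.496 ± 0.28 on the log2 scale (limma adjusted p = 0.0456). It no longer passed under 7 of the 14 alternatives run: probe sets with 1 gene only, the replicate block (limma adjusted p = 0.0528), and without any array but day 5 replicate 1. For AT1G23390 it was 1.47 ± 0.25 (limma adjusted p = 0.0332), and it no longer passed under 5 of 14, without any array but day 3 replicate 2. Over all probe sets 1.93% passed this test. With 2 arrays per day, no array was tested as an outlier.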

How the results depend on the processing

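Neither UGT78D1 comparison with day 5 changed its call under any of the 15 alternatives. When 1 array was left out, UGT78D3 ranged from -0.91 to -0.48 for day 5 minus day 4, from -0.95 to -0.53 for day 5 minus day 3 and from -0.20 to 0.12 for day 4 minus day 3, whose sign is not settled. The number of called flavonoid genes, 6 of 15 between day 4 and day 5, was 3 to 6, with the lowest count without day 4 replicate 2; between day 3 and day 5 it was 7, and 5 to 6 with an array left out. Centring on poly-A spike-ins assumes that equal amounts were added, which is not recorded here. Their mean was 6.38 to 6.64 on days 3 and 4 and 6.87 to 7.03 on day 5, so this moves the median of all probe sets to -0.44 for day 5 minus day 4. It then called 13 flavonoid genes, 12 of them lower, and 14 between day 3 and day 5, 13 of them lower. UGT78D2 passed at -0.58 for day 5 minus day 4 and at -0.82 for day 5 minus day 3. UGT80B1 turned to -0.44 between day 3 and day 5, and the step difference of UGT78D1 passed at -1.17. With this centring 11929 of all probe sets passed between day 4 and day 5, against 5020, and 16041 between day 3 and day 5, against 6548. For day 4 against day 3, 114 passed, 205 with this centring and 15 to 58 with an array left out. Between day 4 and day 5, leaving out an array gave 1366 to 5427, and between day 3 and day 5, 3894 to 5375. With probe sets of 1 gene only, 46, 2548 and 3439 passed for the 3 comparisons, since fewer were tested, and 58 for day 4 against day 3 with the 4 arrays alone.

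Replicate numbers did not meet the rule for pairing: deviations of same-numbered arrays correlated at 0.0987 (days 3 and 4), 0.145 (days 3 and 5) and 0.376 (days 4 and 5). With the replicate number as a block, the day 5 minus day 4 adjusted p was 0.00165 for UGT78D1 (-1.14) and 0.0381 for UGT78D3 (-0.70), and AT4G14090 passed at -0.45 (limma adjusted p = 0.0447). BGLU15 between day 4 and day 5 was also lost with probe sets of 1 gene only, cyclic loess and median centring, and AT4G14090 between day 3 and day 5 with cyclic loess and with the 4 arrays alone.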

Other observations

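Other glycosyltransferase genes changed beside the members, named here after their values were seen. UGT84A1, which glucosylates hydroxycinnamates such as sinapate, fell between day 4 and day 5 by 1.04 on the log2 scale (limma adjusted p = 0.00188). UGT74B1, a glucosyltransferase of glucosinolate synthesis, fell by 0.75 (limma adjusted p = 0.00624), and UGT74F1, which glucosylates salicylic acid, by 0.74 (limma adjusted p = 0.00475). UGT76E11, UGT76D1 and UGT76B1 fell by 0.61, 0.56 and 0.43. In the opposite direction, UGT85A5 rose by 1.56 (limma adjusted p = 0.00074) and UGT87A2 by 0.86 (limma adjusted p = 0.00577). Between day 3 and day 5, UGT85A5 rose by 2.28, the largest rise of the 47 genes.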
